A study of Mus musculus with 12 samples.

Results

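The genes described here encode the subunits of the mitochondrial respiratory chain and of ATP synthase. They were chosen by gene symbol from the deposited count table: the 13 mitochondrially encoded protein genes, whose symbols start with mt-, and the nuclear genes named as subunits of complexes I to V. This gave 103 members of 55809 symbols, 13 mitochondrial and 90 nuclear, and 14 symbols that contain "-ps" were left out. The nuclear members were 40 genes of complex I, 4 of complex II, 8 of complex III, 21 of complex IV and 17 of complex V. Those of complex I include Ndufa11b, Ndufb4c and Ndufs6b, which the GENCODE vM21 annotation lists as processed pseudogenes. Subunit genes with other kinds of symbol fell outside the rule, such as Cyc1 of complex III, which is given with the electron carriers.

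RNA of sorted mouse brain cells was sequenced in 12 libraries, 3 in each of 4 groups. TOM+ and TOM- cells came from the hypothalamus of untreated Mc4r-Cre; Ai14 mice aged 4 weeks. In these mice, Cre made under the control of Mc4r, the gene of the melanocortin 4 receptor, switches on the red reporter tdTomato (TOM) from the Ai14 allele, and a cell keeps the reporter once it is switched on. The study used this sort to look for transcriptional regulators of Mc4r. The AAV-Cre and AAV-GFP cells came from a hypothalamic region, the paraventricular nucleus (PVH), that was dissected 12 weeks after an adeno-associated virus (AAV) had been injected. Those mice were Otp fl/fl; Ai14 and 26 weeks old. Both of these groups carried the floxed Otp gene and the Ai14 reporter. AAV-Cre can delete Otp and switch on the reporter, and the sort took TOM positive cells of that group and GFP positive cells of the other, so the reporter used for sorting differed as well as the virus. This comparison addressed the molecular basis of excess weight gain. Whether the 3 libraries of each group were made from different animals is not given in the labels. The p-values therefore reflect only how these libraries vary, and that variation may be technical.

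Library totals ran from 13506018 to 27827853 counts. Levels are given as CPM, the count relative to the scaled library total, and for comparisons between genes as CPM per kilobase of exon. A log2 change is the log2 fold change fitted by edgeR. Mc4r had 63, 0 and 0 counts in TOM+ libraries, against 0 in each TOM- library, and Otp had 12, 9 and 10 counts in AAV-Cre libraries, against 91, 102 and 38 in AAV-GFP libraries (edgeR adjusted p = 0.134), so Otp was lower in every AAV-Cre library and Mc4r was counted in 1 TOM+ library. Markers of neurons and of other cells were present in the sorted cells: 15 neuronal marker genes summed to 645 to 799 CPM in TOM+ cells, against 128 to 169 CPM in TOM- cells, while 10 oligodendrocyte markers summed to 82105 to 92841 CPM in TOM+ cells, against 19866 to 26255 CPM in TOM- cells. The same neuronal markers summed to 2830 to 3450 CPM in AAV-Cre cells, against 1850 to 3450 CPM in AAV-GFP cells, and the oligodendrocyte markers to 48928 to 62833 CPM in AAV-Cre cells, against 14774 to 53959.8 CPM in AAV-GFP cells. In such bulk samples, fewer cells of a type and less RNA per cell cannot be told apart.

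The respiratory chain passes electrons from NADH and succinate to oxygen and pumps protons across the inner mitochondrial membrane, and ATP synthase uses the returning protons to make ATP. It is built from the products of both genomes: mitochondrial DNA encodes a few membrane-bound core subunits of complexes I, III, IV and V, and nuclear genes encode all of complex II and the remaining subunits. Mitochondrial mRNAs are cut from long transcripts of the mitochondrial genome, whereas each nuclear subunit has its own promoter, and nerve cells depend on this pathway for most of their ATP.

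Several mitochondrial mRNAs have near-identical copies in nuclear DNA. Of the 50-base windows of each mitochondrial mRNA, mt-Nd1, mt-Nd6, mt-Cytb and mt-Atp8 shared 0% with any nuclear gene of the GENCODE vM21 annotation, mt-Nd5 shared 7.61% and mt-Nd2 shared 8.19%. The share was 51.1% for mt-Co1, 62.2% for mt-Nd4, 98.0% for mt-Nd3, 98.8% for mt-Nd4l, 99.5% for mt-Atp6, 99.9% for mt-Co3 and 100% for mt-Co2. The copies of these last 7 genes lie side by side on the minus strand of chromosome 1 (mm10), from Gm28439, a copy of mt-Nd4, to Gm29216, a copy of mt-Co1. Among 86 nuclear members matched to the annotation, the median share was 2.39%, and only Cox6c2 and Ndufb4c reached 50%. The stretches below show how little separates the loci. The first pair is 60 bases of mt-Co1 (chrM:6390-6449, plus strand) and the matching bases of Gm29216 (chr1:24616129-24616188, minus strand), with the 1 base that differs in capitals, and the last line is the start of mt-Atp6 (chrM:7927-7986, plus strand), which is letter for letter the start of Gm10925 (chr1:24614592-24614651, minus strand).
mt-Co1: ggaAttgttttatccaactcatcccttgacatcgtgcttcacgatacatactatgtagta
Gm29216: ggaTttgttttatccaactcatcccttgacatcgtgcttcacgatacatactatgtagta
mt-Atp6 and Gm10925: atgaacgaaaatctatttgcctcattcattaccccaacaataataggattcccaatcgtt

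Most genes with a large shared part had low counts. Per kilobase, mt-Cytb, mt-Co1 and mt-Nd1 averaged 1275, 969 and 863 CPM in TOM+ cells, while mt-Atp6 averaged 30.8, mt-Co3 21.6 and mt-Co2 12.4 CPM per kilobase. The 3 shortest of the low genes, mt-Atp8, mt-Nd3 and mt-Nd4l, stayed at 0 to 31 counts in each of the 12 libraries. These 6 low genes, chosen after their counts were seen, held 0.0495% to 0.998% of the mitochondrial protein-coding counts of a library. 5 of them shared at least 98.0% of their windows with nuclear genes. The other, mt-Atp8, shared none, but its reading frame overlaps that of mt-Atp6. On chrM it lies between mt-Co2 and mt-Atp6. Only annotated transcripts were searched, and not the bases of chromosome 1 between Gm28661, the copy of mt-Co2, and Gm10925, that of mt-Atp6. A copy of mt-Atp8 there would not have been found. The AAV files were counted without reads that map to several places or overlap several genes, and no source used here gives these settings for the TOM table. The part of the shared sequence in the low counts was not tested, and mt-Atp8, mt-Nd3 and mt-Nd4l had too few counts to enter either test.

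**Figure D1:**
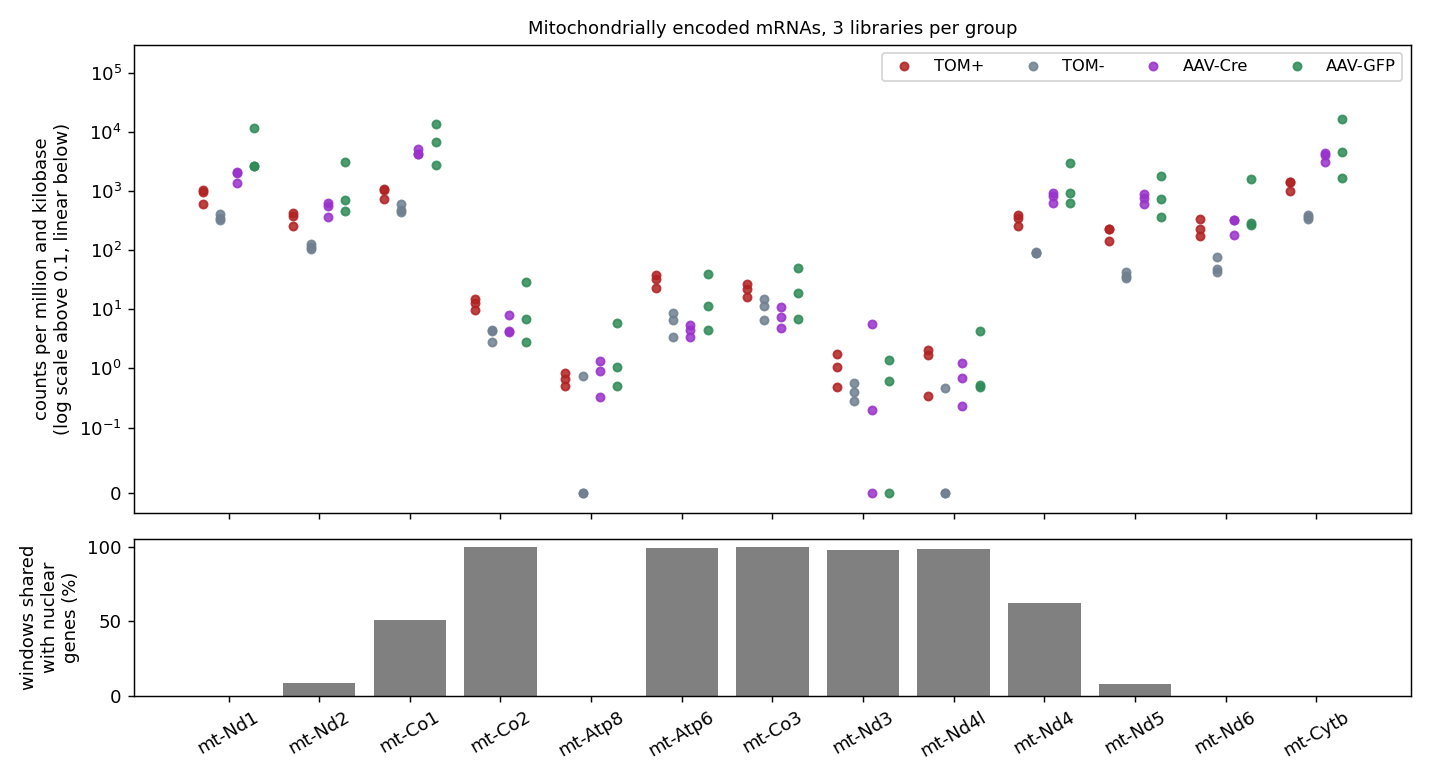
Level of each mitochondrially encoded mRNA in every library, in CPM per kilobase (upper panel, log scale above 0.1 and linear below it), with the share of its 50-base windows found in nuclear genes (lower panel, percent). Each point is a library of TOM+, TOM-, AAV-Cre or AAV-GFP cells; the 5 genes that share at least 98.0% of their windows and mt-Atp8 lie below the other 7 in every library, by the smallest margin in TOM- replicate 1.

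Mitochondrial mRNAs took a larger share of the RNA of TOM+ cells than of TOM- cells, and nuclear subunit mRNAs did not. The 13 mitochondrial genes held 0.638%, 0.633% and 0.420% of all counts in the TOM+ libraries, against 0.188%, 0.163% and 0.170% in the TOM- libraries. The groups did not overlap, and the mean share was 3.24-fold higher in TOM+ cells (two-sided exact permutation test, p = 0.1, the smallest that 3 against 3 libraries allow). The 90 nuclear genes held 1.06%, 1.17% and 1.11% in TOM+ libraries, against 1.38%, 1.11% and 1.12% in TOM- libraries, and these ranges overlapped (two-sided exact permutation test, p = 0.6). Mitochondrial counts per nuclear count were 0.602, 0.540 and 0.379 in TOM+ cells, against 0.136, 0.147 and 0.152 in TOM- cells, a difference of 1.78 on the log2 scale. The mitochondrial ribosomal RNAs, which are not members, moved in the same direction, with 0.345%, 0.268% and 0.193% of counts in TOM+ libraries, against 0.081%, 0.069% and 0.058% in TOM- libraries.

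In the PVH cells the mitochondrial share overlapped between the groups and the nuclear share did not. Mitochondrial genes held 1.99%, 1.42% and 1.79% of counts in AAV-Cre libraries, against 2.19%, 1.03% and 5.57% in AAV-GFP libraries. AAV-GFP replicate 3 stood far above the other 11 libraries, and the AAV-Cre range lay inside that of AAV-GFP. Without that library, the mean share was 1.73% in AAV-Cre cells and 1.61% in AAV-GFP cells. Nuclear genes held 1.34%, 1.31% and 1.36% in AAV-Cre libraries, against 1.74%, 1.57% and 2.49% in AAV-GFP libraries, with no overlap. The mean share in AAV-Cre cells was 0.692 times that in AAV-GFP cells (two-sided exact permutation test, p = 0.1, again the smallest that this number of libraries allows). The ratio of mitochondrial to nuclear counts was 1.48, 1.08 and 1.31 in AAV-Cre cells and 1.26, 0.653 and 2.23 in AAV-GFP cells. The same permutation test gave p = 0.6 for the mitochondrial share and p = 0.9 for the log2 of this ratio.

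**Figure D2:**
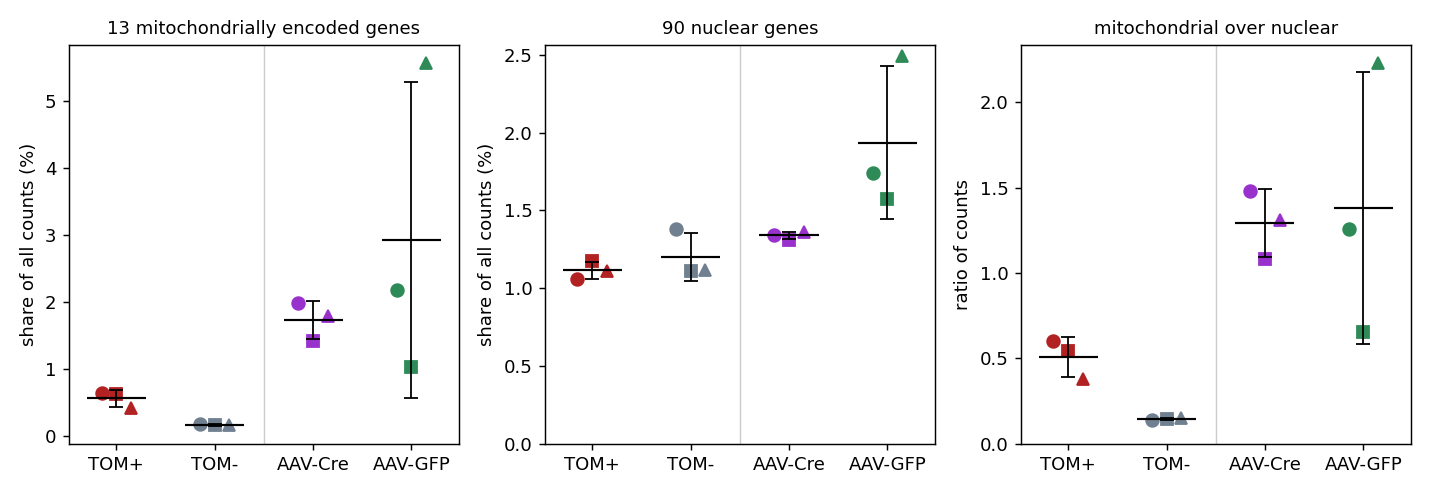
Share of all counts held by the 13 mitochondrially encoded genes and by the 90 nuclear genes (percent), and the ratio of the first to the second, in each library. Points are the 3 libraries of a group (circle, square and triangle for replicates 1, 2 and 3), horizontal lines are means and bars are SD; the mitochondrial share separates TOM+ from TOM- cells, and AAV-GFP replicate 3 stands apart at 5.57%.

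Gene by gene, 8 of the 10 mitochondrial members tested rose in TOM+ cells and none fell, by edgeR's quasi-likelihood test at an adjusted p of 0.05. Over all 15228 genes tested, 23.9% passed, 10.4% rose and 13.4% fell. All 10 had higher values in every TOM+ library than in any TOM- library, where 20.8% of all genes tested did, and their median log2 fold change was 1.75, against -0.02 for all genes.

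Complex I has 7 mitochondrial subunits, which form its proton-pumping membrane arm. mt-Nd5, at the far end of that arm, had 424, 413 and 266 CPM in TOM+ libraries, against 61.1, 66.3 and 76.8 CPM in TOM- libraries. Every TOM+ library was more than 3 times as high as any TOM- library, and the log2 fold change was 2.43 ± 0.23 (SE; edgeR adjusted p = 0.000616). mt-Nd4, its neighbour in the arm, had 548, 476 and 356 CPM in TOM+ libraries, against 123, 124 and 130 CPM in TOM- libraries, a log2 change of 1.87 ± 0.19 (edgeR adjusted p = 0.000845). mt-Nd1, which adjoins the site where ubiquinone binds, had 908, 981 and 589 CPM in TOM+ libraries, against 397, 331 and 315 CPM in TOM- libraries, and rose less, by 1.25 ± 0.22 on the log2 scale (edgeR adjusted p = 0.00766). The ranges of these 3 genes did not overlap between groups, and TOM+ replicate 3 was the lowest TOM+ library for each of them. mt-Nd2 averaged 364 ± 86.3 CPM in TOM+ cells and 120 ± 12.0 CPM in TOM- cells (SD, n = 3 each), with a log2 change of 1.60 (edgeR adjusted p = 0.00256). mt-Nd6, which is read from the opposite strand to the other members, had 120, 177 and 89.1 CPM in TOM+ libraries, against 22.6, 25.4 and 40.0 CPM in TOM- libraries. Its log2 fold change was 2.13 ± 0.34 (edgeR adjusted p = 0.00519), but counting in the AAV files did not use strand and that of the TOM table is not given, so RNA antisense to mt-Nd6 cannot be told apart from it.

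In complex III, mt-Cytb, the cytochrome b that carries both ubiquinone sites, had 1607, 1640 and 1130 CPM in TOM+ libraries, against 445, 418 and 392 CPM in TOM- libraries. This member shares no window with a nuclear gene, and it rose by 1.80 ± 0.18 on the log2 scale (edgeR adjusted p = 0.000834). In complex IV, mt-Co1, the subunit that reduces oxygen, had 1705, 1629 and 1156 CPM in TOM+ libraries, against 918, 737 and 694 CPM in TOM- libraries. Its log2 fold change of 0.93 ± 0.19 (edgeR adjusted p = 0.0137) was the lowest of the 8 that passed, and the call was lost without TOM- replicate 2 or 3 (edgeR adjusted p = 0.0690 and 0.0543). mt-Co2 averaged 8.49 ± 1.72 CPM in TOM+ cells and 2.63 ± 0.60 CPM in TOM- cells, and mt-Co3 averaged 16.9 ± 3.99 CPM in TOM+ cells and 8.63 ± 3.28 CPM in TOM- cells (SD, n = 3 each); neither passed (edgeR adjusted p = 0.0719 and 0.173). In complex V, mt-Atp6, part of the proton channel, had 25.8, 21.9 and 15.3 CPM in TOM+ libraries, against 5.94, 2.32 and 4.49 CPM in TOM- libraries. It rose by 2.30 ± 0.50 on the log2 scale (edgeR adjusted p = 0.0162), a call lost without TOM- replicate 2 or 3 or TOM+ replicate 1 (edgeR adjusted p = 0.0602, 0.0519 and 0.0525). The nuclear copy Gm10925 is identical to mt-Atp6 over 678 of the 681 bases of mt-Atp6. It had 422, 621 and 434 counts in TOM+ libraries, against 103, 57 and 111 in TOM- libraries. Beside these, mt-Atp6 had 502, 642 and 461 counts in TOM+ libraries, against 118, 48 and 98 in TOM- libraries. Reads of the 2 loci cannot be told apart within the shared sequence.

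The rise was uneven between these mRNAs. mt-Co1 held 29.4%, 28.3% and 29.7% of the mitochondrial protein-coding counts of TOM+ libraries, against 43.3%, 40.5% and 38.9% in TOM- libraries. mt-Cytb held 27.7%, 28.5% and 29.1% in TOM+ libraries, against 21.0%, 23.0% and 22.0% in TOM- libraries, and mt-Nd5 held 7.30%, 7.19% and 6.83% in TOM+ libraries, against 2.88%, 3.64% and 4.31% in TOM- libraries. None of these 3 shares, picked after the values were seen, overlapped between the groups. Of the other abundant mRNAs, mt-Nd1 also held a lower share without overlap, on average 15.9% in TOM+ cells and 18.2% in TOM- cells. Those of mt-Nd4 and mt-Nd2 were higher in TOM+ cells without overlap, and that of mt-Nd6 overlapped. Shares of a whole must offset one another, so a lower share of mt-Co1 goes with a count that still rose. In AAV-Cre cells mt-Nd5 held 8.61%, 7.89% and 8.40%, against 6.19%, 6.26% and 5.28% in AAV-GFP cells, again without overlap, whereas mt-Co1 held 43.4% ± 3.78 in AAV-Cre cells and 40.3% ± 7.04 in AAV-GFP cells (SD, n = 3 each), with overlap.

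**Figure D3:**
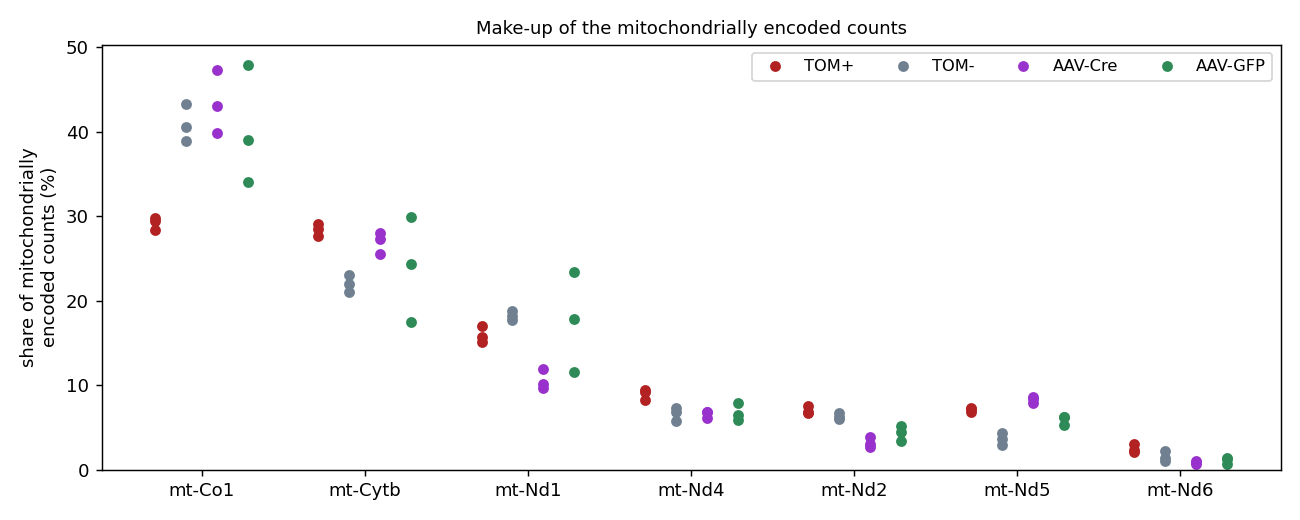
Share of the mitochondrially encoded protein-coding counts held by each of the 7 abundant mRNAs, in percent. Each point is a library of TOM+, TOM-, AAV-Cre or AAV-GFP cells; mt-Co1 holds 28.3% to 29.7% in TOM+ cells and 38.9% to 43.3% in TOM- cells, and mt-Nd5 is higher in every TOM+ library than in any TOM- library.

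The nuclear members lay on the other side of 0. Of 84 tested, 11 fell in TOM+ cells and none rose, which is 13.1% called, close to the 13.4% of all genes that fell. Their median log2 fold change was -0.38, and 75 of 84 were negative, against 50.9% of all genes tested. The values of 48 were lower in every TOM+ library than in any TOM- library, against 25.6% of all genes, and 1, Ndufs1, was higher in every TOM+ library. These changes were small. Without scaling factors, the median of all genes moved by 0.26 to 0.24 and that of the nuclear members to -0.11, so that the distance between them was -0.36 with scaling and -0.35 without. Of the 84 nuclear members, 59 were then negative, and the distance of the mitochondrial median from all genes was 1.77 either way. Without scaling factors 2204 genes rose and 1532 fell, where 1589 rose and 2046 fell with them.

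Among nuclear subunits of complex I, 7 of 37 tested fell. Ndufs8, a core subunit that carries iron-sulfur clusters, had 91.7, 99.0 and 109 CPM in TOM+ libraries, against 238, 185 and 177 CPM in TOM- libraries. All TOM+ values lay below all TOM- values, the log2 fold change was -1.0 ± 0.18 (edgeR adjusted p = 0.00788), and the call was kept in 6 of 6 fits that left out a library. Ndufa9, an accessory subunit next to the ubiquinone site, had 117, 117 and 132 CPM in TOM+ libraries, against 296, 235 and 172 CPM in TOM- libraries, a log2 change of -0.95 ± 0.22 (edgeR adjusted p = 0.0192) that was not called without TOM- replicate 2 or TOM+ replicate 1 (edgeR adjusted p = 0.0733 and 0.0642). The core subunits Ndufs3 and Ndufs7 fell by 0.73 and 0.75 on the log2 scale (edgeR adjusted p = 0.0411 and 0.0428) with all libraries, but of the 6 fits that left out a library, only that without TOM- replicate 3 kept these calls (edgeR adjusted p up to 0.117 for each). The accessory subunits Ndufa11, Ndufa13 and Ndufc2 fell by 0.82, 0.74 and 0.66 (edgeR adjusted p = 0.0340, 0.0341 and 0.0266). The call of Ndufa11 was kept only without TOM- replicate 3, that of Ndufa13 only without TOM+ replicate 2, and that of Ndufc2 only without TOM- replicate 3 or TOM+ replicate 2 (edgeR adjusted p up to 0.1004 for Ndufa11, 0.106 for Ndufa13 and 0.0888 for Ndufc2). Ndufs1, the largest core subunit, went the other way, with 101, 95.1 and 98.5 CPM in TOM+ libraries, against 72.3, 63.5 and 90.4 CPM in TOM- libraries, but did not pass (log2 fold change 0.38 ± 0.19, edgeR adjusted p = 0.192). Complex I members thus ran from -1.0 to 0.38 on the log2 scale.

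Complex II, which oxidises succinate and has no mitochondrially encoded subunit, had 1 call among 4 members. Sdhb, its iron-sulfur subunit, had 171, 180 and 195 CPM in TOM+ libraries, against 381, 264 and 275 CPM in TOM- libraries, and fell by 0.75 on the log2 scale (SE 0.18, edgeR adjusted p = 0.0233). All TOM+ values lay below all TOM- values, but the call was lost without TOM- replicate 2 or any single TOM+ library (edgeR adjusted p up to 0.0776). The membrane anchors Sdhc and Sdhd averaged 144 ± 35.2 and 173 ± 33.6 CPM in TOM+ cells, against 190 ± 14.3 and 236 ± 26.5 CPM in TOM- cells (SD, n = 3 each), and did not pass. Sdha, the flavoprotein that binds succinate, averaged 299 ± 43.2 CPM in TOM+ cells and 292 ± 32.8 CPM in TOM- cells, with overlapping ranges (log2 fold change 0.04, edgeR adjusted p = 0.899).

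Complexes III, IV and V had 1 call each. Uqcrc1, a core subunit of complex III, had 272, 449 and 342 CPM in TOM+ libraries, against 739, 568 and 570 CPM in TOM- libraries, a log2 change of -0.82 ± 0.22 (edgeR adjusted p = 0.0312). Atp5g3, one of the genes of the rotating c-ring of ATP synthase, had 190, 192 and 180 CPM in TOM+ libraries, against 322, 268 and 236 CPM in TOM- libraries, and fell by 0.56 on the log2 scale (edgeR adjusted p = 0.0421). The TOM+ values of both genes lay below all TOM- values. The call of Uqcrc1 was kept only without TOM+ replicate 2 among the 6 fits that left out a library, and that of Atp5g3 only without TOM- replicate 3 (edgeR adjusted p up to 0.0871 for Uqcrc1 and 0.119 for Atp5g3). The call in complex IV was Ndufa4l2, a paralog of the complex IV subunit Ndufa4, which had 0 counts in all 3 TOM+ libraries, against 21, 30 and 50 counts in TOM- libraries. It was at least 42.6-fold lower in TOM+ cells, taking 3 counts over the group as the bound, with an edgeR adjusted p of 0.0118. A gene at 0 in one group enters the test only through the other, and this call was lost without TOM- replicate 1, 2 or 3 (edgeR adjusted p = 0.0502, 0.0635 and 0.0522). Its general partner Ndufa4 averaged 151 ± 9.39 CPM in TOM+ cells and 192 ± 27.3 CPM in TOM- cells, and did not pass (edgeR adjusted p = 0.167).

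The number of nuclear calls moved with the libraries and the tool. Without TOM- replicate 1, 2 or 3 in turn, the 11 became 3, 1 and 9, and without TOM+ replicate 1, 2 or 3 they became 2, 6 and 3, while the median stayed between -0.50 and -0.26. With DESeq2 24 nuclear members fell, and without scaling factors 3 did in edgeR; on simulated data DESeq2 made more false calls than edgeR in both sets. Microglial and blood marker genes were far lower in TOM+ cells: all 11 microglial markers fell, summing to 493 to 1121 CPM in TOM+ cells, against 27772 to 33314 CPM in TOM- cells. All 5 blood markers, all 13 immediate-early genes and 5 of 8 endothelial markers also fell, and of 9 mural and fibroblast markers tested 3 fell, with Kcnj8 and Myh11 at 0 in TOM+ cells. Of 8 astrocyte markers 2 fell, summing to 9601 to 13189 CPM in TOM+ cells, against 19064 to 20133 CPM in TOM- cells, and of 6 ependymal and tanycyte markers 1 fell, summing to 30.9 to 48.4 CPM in TOM+ cells, against 65.8 to 96.6 CPM in TOM- cells. All 10 oligodendrocyte markers, 9 of 15 neuronal markers and 4 of 7 precursor markers rose. Over all genes tested, 10.4% rose and 13.4% fell. The microglial, blood and immediate-early calls were kept in 6 of 6 fits that left out a library. Calls of the endothelial markers Cldn5, Ly6c1 and Pecam1, the mural marker Pdgfrb, the precursor markers Olig1 and Olig2 and the neuronal marker Syp were kept in 1 of 6. The part of these cell types, and of the immediate-early genes, in the values of the respiratory chain genes was not tested.

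**Figure D4:**
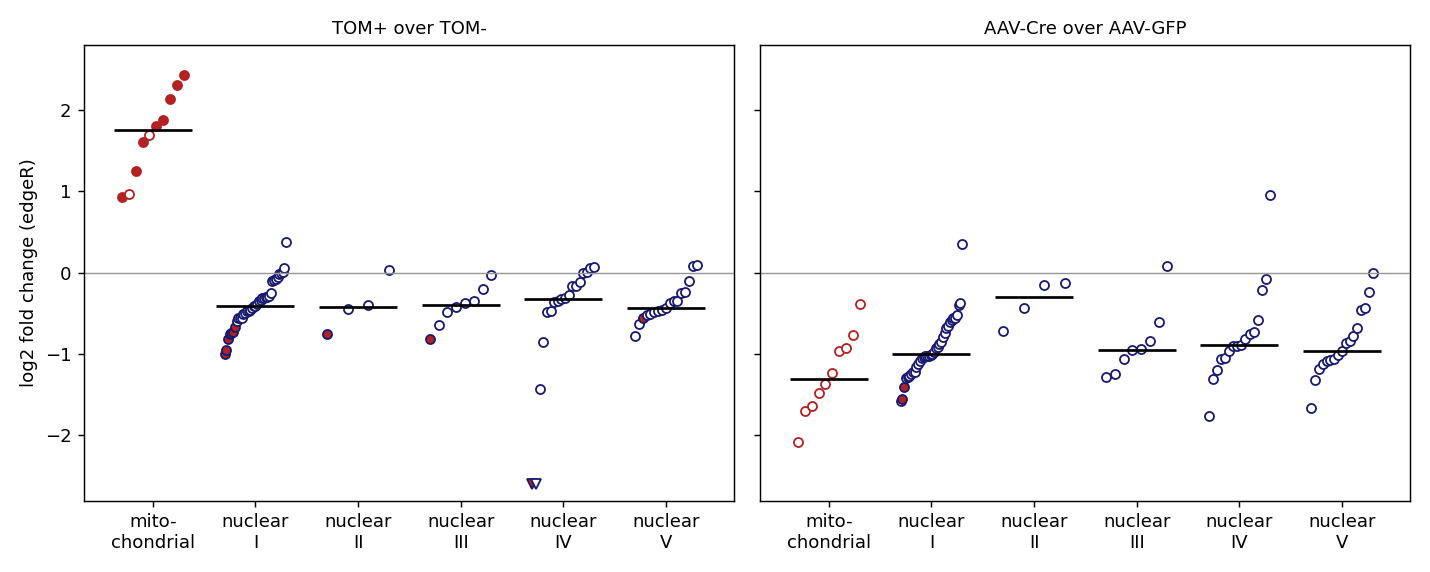
Log2 fold change (edgeR) of each member tested, TOM+ over TOM- (left) and AAV-Cre over AAV-GFP (right), for mitochondrial genes and for nuclear genes by complex. Filled points passed an adjusted p of 0.05, lines are medians, and triangles mark Ndufa4l2 and Cox4i2, which lie below the axis; mitochondrial genes are all above 0 on the left and below it on the right, and the nuclear medians are below 0 in both.

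In AAV-Cre cells, none of the 10 mitochondrial members tested passed and 2 of 81 nuclear members, Ndufc1 and Ndufb5, fell. Over the 15408 genes tested, 2.60% passed, 0.630% rose and 1.97% fell, so the 2.47% of nuclear members called is near the background. Ndufc1, a small accessory subunit of complex I, had 36.8, 38.3 and 36.1 CPM in AAV-Cre libraries, against 89.4, 95.7 and 140 CPM in AAV-GFP libraries, a log2 change of -1.55 ± 0.28 (edgeR adjusted p = 0.0405). Ndufb5, an accessory subunit of the membrane arm, had 70.7, 64.5 and 66.7 CPM in AAV-Cre libraries, against 178, 139 and 218 CPM in AAV-GFP libraries, a log2 change of -1.41 ± 0.27 (edgeR adjusted p = 0.0438). All AAV-Cre values lay below all AAV-GFP values for both genes, but neither call was kept in any of the 6 fits that left out a library, where the edgeR adjusted p reached 0.149 for Ndufc1 and 0.163 for Ndufb5. With DESeq2, 11 nuclear members fell. DESeq2 made more false calls than edgeR on simulated data, in which no library stood apart. In the other comparison Ndufc1 averaged 81.0 ± 7.07 CPM in TOM+ cells and 82.2 ± 24.6 CPM in TOM- cells, Ndufb5 averaged 84.5 ± 14.2 CPM in TOM+ cells and 103 ± 16.7 CPM in TOM- cells (SD, n = 3 each), and neither passed.

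Below the threshold, most nuclear members had lower values in AAV-Cre cells. The median log2 fold change of the 81 was -0.93, against -0.16 for all genes, and 78 were negative, against 57.2% of all genes tested. The values of 51 did not overlap and were lower in AAV-Cre cells, against 18.6% of all genes, while none was higher in every AAV-Cre library, against 9.85%. An unadjusted edgeR p under 0.05 was found for 49 of the 81, against 2896 of all 15408 genes tested. Without scaling factors the distance of the nuclear median from that of all genes was -0.74, against -0.77 with them. Without AAV-GFP replicate 3, the nuclear median was -0.50 and that of all genes -0.05. By complex the medians were -1.0 for I, -0.29 for II, -0.94 for III, -0.89 for IV and -0.97 for V. Ndufa13, which is needed to assemble complex I, had 136, 160 and 137 CPM in AAV-Cre libraries, against 273, 311 and 455 CPM in AAV-GFP libraries, and did not pass (log2 fold change -1.26 ± 0.28, edgeR adjusted p = 0.0556). Atp5k, the e subunit of ATP synthase, had 19.8, 19.8 and 23.6 CPM in AAV-Cre libraries, against 36.1, 71.6 and 91.7 CPM in AAV-GFP libraries (edgeR adjusted p = 0.0611). Ndufa7 and Ndufb10, further accessory subunits of complex I, followed with log2 fold changes of -1.25 and -1.02 (edgeR adjusted p = 0.0645 and 0.0842). Only Ndufs1, Cox7b2 and Uqcrc2 had positive log2 fold changes, of 0.36, 0.95 and 0.08, and none passed.

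Atp5b and complex II did not pass in the PVH cells. Atp5b, the catalytic beta subunit, had 1676, 1390 and 1461 CPM in AAV-Cre libraries, against 1160, 1204 and 2170 CPM in AAV-GFP libraries, a log2 change of -0.0019 ± 0.32 with overlapping ranges. Sdha averaged 802 ± 143 CPM in AAV-Cre cells and 879 ± 176 CPM in AAV-GFP cells, and Sdhd averaged 176 ± 26.9 CPM in AAV-Cre cells and 194 ± 71.7 CPM in AAV-GFP cells (SD, n = 3 each). Sdhb and Sdhc had log2 fold changes of -0.72 and -0.44, with edgeR adjusted p of 0.205 and 0.476. A p above the threshold does not show equal levels.

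The mitochondrial median of this comparison changed sign without 1 library. mt-Cytb had 5138, 3539 and 4646 CPM in AAV-Cre libraries, against 5302, 1885 and 18810 CPM in AAV-GFP libraries, and mt-Nd1 had 1904, 1335 and 1982 CPM in AAV-Cre libraries, against 2509, 2526 and 11208 CPM in AAV-GFP libraries. AAV-GFP replicate 3 was the highest library for both, and only mt-Nd1 was lower in every AAV-Cre library than in any AAV-GFP library. The median log2 fold change of the 10 was -1.30, with all 10 negative, and without AAV-GFP replicate 3 it was 0.049, with 6 positive and 4 negative. That library also had the highest share of mitochondrial ribosomal RNA, with 0.335%, 0.222% and 0.386% of counts in AAV-Cre libraries, against 0.442%, 0.417% and 1.63% in AAV-GFP libraries. This share was lower in every AAV-Cre library than in any AAV-GFP library, with or without AAV-GFP replicate 3.

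Markers of other cells differed between the PVH groups too. Of 6 ependymal and tanycyte markers 3 fell, summing to 20.1 to 27.2 CPM in AAV-Cre cells, against 771 to 1490 CPM in AAV-GFP cells, with Rax at 0 in AAV-Cre cells. Endothelial markers summed to 0.0623 to 55.0 CPM in AAV-Cre cells, against 444 to 705 CPM in AAV-GFP cells, with Emcn and Cdh5 at 0 in AAV-Cre cells and 1 of 7 called. Mural and fibroblast markers summed to 19.1 to 46.4 CPM in AAV-Cre cells, against 95.1 to 142 CPM in AAV-GFP cells, with Acta2 and Myh11 at 0 in AAV-Cre cells. Only 5 of the 8 tested had negative log2 fold changes, and 1 of them passed. Of the 5 blood markers 2 fell. Of 10 oligodendrocyte markers 3 rose, none of 15 neuronal markers passed, and of 13 immediate-early genes 2 rose. Of 11 microglial markers 1 rose, and they summed to 6656 to 14026 CPM in AAV-Cre cells, against 2974 to 5901 CPM in AAV-GFP cells, without overlap. Astrocyte markers summed to 9388 to 12041 CPM in AAV-Cre cells, against 7614 to 20965 CPM in AAV-GFP cells, and none of 8 passed. Over all genes tested, 2.60% passed. No marker called in AAV-Cre cells passed in all 6 fits that left out a library. Ermn, Mag, Mal, Csf1r and Emcn passed in 0 of 6. AAV-Cre libraries also had more genes without any count, 38821 to 41062, against 31907 to 35031 in AAV-GFP libraries. The part of these differences in the nuclear values was not tested.

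Subunit isoforms known from other tissues were scarce, and members with no value are counted here. The general isoform Cox4i1, a regulatory subunit of complex IV, averaged 348 ± 18.5 CPM in TOM+ cells and 481 ± 86.7 CPM in TOM- cells, and 549 ± 22.0 CPM in AAV-Cre cells and 1130.7 ± 495 CPM in AAV-GFP cells (SD, n = 3 each); it passed in neither comparison. Its partner Cox4i2, known from lung and from cells that sense low oxygen, had 6, 0 and 0 counts in TOM+ libraries, against 17, 16 and 19 in TOM- libraries, and did not pass (edgeR adjusted p = 0.224). In the PVH, Cox4i2 had 0 counts in all 3 AAV-Cre libraries, against 5, 15 and 22 in AAV-GFP libraries, and Ndufa4l2 had 0 counts in AAV-Cre libraries, against 11, 8 and 23 in AAV-GFP libraries. Each was at least 13.4-fold lower in AAV-Cre cells by summed counts, but both were below the count filter and were not tested. Both genes are known from pericytes of brain vessels. The summed mural and fibroblast markers were lower in the same groups. Of those tested, 9 of 9 had negative log2 fold changes in TOM+ cells, but only 5 of 8 in AAV-Cre cells. The part of such cells was not tested.

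The muscle isoforms Cox6a2 and Cox7a1 and the testis isoform Cox6b2 had means between 0.356 and 4.75 CPM in every group and passed in neither comparison. Their general partners were far higher, with means in TOM+ cells of 196 CPM for Cox6a1, 131 CPM for Cox6b1 and 102 CPM for Cox7a2. Cox8c and Ndufb11b had 0 counts in all 12 libraries, and Cox8b had 8 and 1 counts in single TOM+ and TOM- libraries and none in the PVH. In all, 94 of the 103 members entered the test of TOM+ cells and 91 that of AAV-Cre cells.

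Per kilobase, the nuclear mRNA with the highest mean over the 12 libraries was Cox8a, a small subunit of complex IV, with 264 ± 23.0 CPM per kilobase in TOM+ cells, 296 ± 37.3 in TOM- cells, 583 ± 58.1 in AAV-Cre cells and 1140 ± 600 in AAV-GFP cells (SD, n = 3 each). Cox6a1, of the same complex, came second with 280 ± 31.3 CPM per kilobase in TOM+ cells and 314 ± 67.9 in TOM- cells. In the other complexes the highest nuclear mRNAs per kilobase were Ndufb9 and Ndufa8 in I, Sdhd and Sdha in II, Uqcr11 and Uqcr10 in III, and Atp5b and Atp5a1 in V. Levels in the hypothalamic and PVH sets are given side by side only, since age, region and virus differ between them.

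Nuclear subunit genes are known to share promoter elements, among them binding motifs of NRF1, of ETS factors such as GABP, and of YY1. RefSeq promoters (GRCm38.p6, 250 bases before to 50 after the start) matched 69 of the 90 nuclear members. On either strand, GCATGCG (NRF1) was in 15.9% of these members, against 4.01% of 27025 genes with a promoter and 6.70% of the 12008 that entered a test. CCGGAAG (ETS) was in 24.6% of members, against 9.93% of all and 17.8% of tested genes, and ATGGCGG (YY1) in 14.5% of members, against 4.69% of all and 8.38% of tested genes. At least 1 of the 3 was in 44.9% of members, against 16.6% of all and 28.9% of tested genes, and in 8 of the 12 members with a promoter that passed in either comparison. GCATGCG on one strand overlaps its own match on the other in CGCATGCG. A match describes letters and not a bound site. The promoters below were picked from the 8 called members that hold a motif. These genes fell in TOM+ cells (Sdhb, Uqcrc1 and Ndufs8) or in AAV-Cre cells (Ndufb5). The called members Atp5g3, Ndufa13, Ndufc2 and Ndufc1 held none of the 3 motifs and are not shown. Every motif is in capitals: Sdhb (chr4:140961021-140961320, plus strand), Uqcrc1 (chr9:108936398-108936697, plus strand), Ndufs8 (chr19:3912725-3913024, minus strand) and Ndufb5 (chr3:32736813-32737112, plus strand).
Sdhb: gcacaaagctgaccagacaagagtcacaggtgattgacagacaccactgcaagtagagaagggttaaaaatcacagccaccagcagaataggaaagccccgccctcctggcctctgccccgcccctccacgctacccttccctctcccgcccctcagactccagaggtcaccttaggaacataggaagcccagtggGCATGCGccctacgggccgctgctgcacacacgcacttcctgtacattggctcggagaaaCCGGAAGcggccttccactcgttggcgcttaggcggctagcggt
Uqcrc1: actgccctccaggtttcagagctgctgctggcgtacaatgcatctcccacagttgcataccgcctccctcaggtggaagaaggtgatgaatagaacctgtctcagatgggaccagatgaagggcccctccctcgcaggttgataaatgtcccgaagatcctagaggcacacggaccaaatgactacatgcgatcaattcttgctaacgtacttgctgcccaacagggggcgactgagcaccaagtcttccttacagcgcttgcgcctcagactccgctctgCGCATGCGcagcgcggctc
Ndufs8: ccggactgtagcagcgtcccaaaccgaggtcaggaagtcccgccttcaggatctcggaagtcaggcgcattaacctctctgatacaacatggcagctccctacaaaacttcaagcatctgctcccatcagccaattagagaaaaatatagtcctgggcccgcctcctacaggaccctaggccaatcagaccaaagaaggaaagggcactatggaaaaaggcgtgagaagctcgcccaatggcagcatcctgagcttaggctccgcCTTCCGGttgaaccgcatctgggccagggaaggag
Ndufb5: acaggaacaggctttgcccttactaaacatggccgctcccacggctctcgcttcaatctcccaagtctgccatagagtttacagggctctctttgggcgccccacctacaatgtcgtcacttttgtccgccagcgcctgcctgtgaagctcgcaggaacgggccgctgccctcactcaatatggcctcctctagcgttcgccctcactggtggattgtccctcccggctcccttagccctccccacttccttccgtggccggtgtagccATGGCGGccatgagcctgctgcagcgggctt

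Nrf1, Gabpa and Ppargc1a, which act on such promoters, did not pass. Nrf1 averaged 19.3 ± 12.5 CPM in TOM+ cells and 42.9 ± 9.63 CPM in TOM- cells, and Gabpa averaged 24.9 ± 8.88 CPM in TOM+ cells and 7.56 ± 5.73 CPM in TOM- cells (SD, n = 3 each; edgeR adjusted p = 0.210 and 0.0816). Ppargc1a, the coactivator PGC-1alpha, averaged 29.9 ± 5.75 CPM in TOM+ cells and 12.5 ± 7.08 CPM in TOM- cells (edgeR adjusted p = 0.134). Of 10 regulators of mitochondrial biogenesis tested, 2 fell in TOM+ cells. The nuclear receptor gene Esrra averaged 3.77 ± 1.70 CPM in TOM+ cells and 16.6 ± 3.98 CPM in TOM- cells (log2 fold change -2.14, edgeR adjusted p = 0.0289), and Ppargc1b, a relative of Ppargc1a, had no count in TOM+ cells and averaged 0.917 ± 0.221 CPM in TOM- cells (edgeR adjusted p = 0.0128). Ppargc1b entered the test only through the TOM- libraries, and its call was lost without each of them (edgeR adjusted p up to 0.0726). The call of Esrra was lost without TOM- replicate 1, 2 or 3 or TOM+ replicate 1 (edgeR adjusted p up to 0.117). In AAV-Cre cells none of 11 passed. Pprc1, another coactivator of the family, had the smallest p, with 45.6 ± 8.34 CPM in AAV-Cre cells and 13.4 ± 6.10 CPM in AAV-GFP cells (edgeR adjusted p = 0.0741).

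Genes that maintain and transcribe mitochondrial DNA had 4 rises and no falls in TOM+ cells among 25 tested, with a median log2 fold change of 0.22, where 10.4% of all genes rose and 13.4% fell. Ssbp1, the single-stranded DNA-binding protein of the mitochondrial replisome, averaged 94.9 ± 11.04 CPM in TOM+ cells and 45.6 ± 2.16 CPM in TOM- cells (SD, n = 3 each; log2 fold change 1.06, edgeR adjusted p = 0.00663). Mterf2, Mterf3 and Trmt10c rose by 1.83, 0.98 and 1.70 on the log2 scale; the first pair belong to the mitochondrial transcription termination factor family, and Trmt10c is a subunit of the enzyme that cuts mitochondrial tRNAs at their 5′ end. Tfam, which packages mitochondrial DNA and starts its transcription, averaged 26.8 ± 9.23 CPM in TOM+ cells and 25.4 ± 6.84 CPM in TOM- cells (edgeR adjusted p = 0.905). In AAV-Cre cells none of the 25 passed, and the median was 0.05. The mitochondrial ribosomal RNAs mt-Rnr1 and mt-Rnr2 rose in TOM+ cells by 2.14 and 1.63 on the log2 scale (edgeR adjusted p = 0.00540 and 0.00409), and neither passed in AAV-Cre cells.

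Counts in neighbouring pathways are read against the 10.4% of all genes that rose and the 13.4% that fell in TOM+ cells. Of 17 genes of the citric acid cycle and pyruvate dehydrogenase, 5 rose and 3 fell. Dld, the shared E3 subunit of the 2-oxoacid dehydrogenases, averaged 117 ± 15.7 CPM in TOM+ cells and 47.6 ± 0.458 CPM in TOM- cells (edgeR adjusted p = 0.00282), and Sucla2, a subunit of succinyl-CoA synthetase, averaged 132 ± 23.1 CPM in TOM+ cells and 49.4 ± 5.78 CPM in TOM- cells (edgeR adjusted p = 0.00325). Idh3a, Pdha1 and Dlat rose as well, and Idh3g, Idh2 and Suclg2 fell. Of 18 electron carriers 2 fell, Cyc1, the cytochrome c1 of complex III, and Coq8b, a factor of ubiquinone synthesis, by 0.76 and 0.95 on the log2 scale (edgeR adjusted p = 0.0432 and 0.0403). Of 47 assembly factors tested 1 rose and 1 fell: the complex I factor Ndufaf4 averaged 49.2 ± 13.8 CPM in TOM+ cells and 16.2 ± 0.678 CPM in TOM- cells (edgeR adjusted p = 0.00926), and Coa3, a complex IV factor, fell by 0.69 (edgeR adjusted p = 0.0420). Of 17 carriers and import genes 4 fell, among them Slc25a5, an ADP/ATP carrier, by 0.95, and Phb, a prohibitin, by 0.65 (edgeR adjusted p = 0.0171 and 0.0261). The shares of carriers of electrons and of assembly factors that passed in either direction lay below the 23.9% of all genes. Of the 29 genes of these pathway lists that passed in TOM+ cells, 5 passed in each of the 6 fits that left out a library (Ssbp1, Dld, Sucla2, mt-Rnr1 and mt-Rnr2), and 24 did not pass in at least 1.

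The proteins of the mitochondrial ribosome, which translates the 13 mitochondrial mRNAs, are also encoded by nuclear genes. In TOM+ cells 5 of 77 fell and none rose, a smaller share than the 13.4% of all genes that fell. Their median was -0.33 and 64 were negative, against 50.9% of all genes tested. Mrpl44 and Mrpl16 fell by 1.32 and 1.22 on the log2 scale (edgeR adjusted p = 0.0119 and 0.0211). In AAV-Cre cells none of 77 passed, the median was -0.59 and 72 were negative, and Mrps14 had the smallest p, with 41.4 ± 10.7 CPM in AAV-Cre cells and 115 ± 25.3 CPM in AAV-GFP cells (edgeR adjusted p = 0.0523). No electron carrier, assembly factor, citric acid cycle gene or carrier passed in AAV-Cre cells. The smallest p of the carriers of electrons was that of Etfa, a subunit of the electron transfer flavoprotein, with 96.5 ± 15.03 CPM in AAV-Cre cells and 299 ± 119 CPM in AAV-GFP cells (SD, n = 3 each; edgeR adjusted p = 0.0515). The smallest p of the assembly factors was that of the complex I factor Ndufaf8, with 24.5 ± 1.73 CPM in AAV-Cre cells and 64.7 ± 17.2 CPM in AAV-GFP cells (edgeR adjusted p = 0.0533).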

How the data were processed

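The authors deposited raw read counts by gene symbol for 12 libraries of sorted cells. Per the submitters' processing notes, the authors used FastQC, Trim Galore, STAR and featureCounts with the mm10 build. Per the file headers, featureCounts 2.0.1 counted the AAV set without strand on the GENCODE vM30 annotation. Reads that map to several places or overlap several genes were left out. GENCODE vM30 belongs to a later assembly than mm10. The notes and the headers thus name different builds, and any effect on the counts was not tested. Per the labels' protocols, libraries were made with a low-input SMART-Seq kit, and no molecular identifiers are described, so bounds from counts cover counting error only. The 6 single AAV files were identical to the joint table, and replicate pairs differed by more than sampling noise (chi-square per degree of freedom of at least 47.7).

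The 6 libraries of a comparison were fitted together with edgeR 4.0.16 (R 4.3.3): TMM scaling, filterByExpr with a minimum count of 10, and the two-sided quasi-likelihood test, with Benjamini-Hochberg adjustment over all genes tested and a threshold of 0.05. TMM factors were 1.08 to 1.10 in TOM+ and 0.890 to 0.952 in TOM- libraries, and 1.03 to 1.08 in AAV-Cre and 0.886 to 1.01 in AAV-GFP libraries. CPM used the scaled totals, and the SE of a log2 fold change came from the F statistic. A bound for a group at 0 takes 3 counts over the group. Nuclear copies were sought as identical 50-base windows in GENCODE vM21 transcripts. RLE factors, unscaled totals, no count filter, removal of mitochondrially encoded genes, DESeq2 1.42.0, a replicate block and leaving out each library were tried, and the steps were tested on simulated data.

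The members and gene lists were chosen with earlier results of these data known. Named were the 13 mitochondrial members, the 6 nuclear members with the smallest p per direction and comparison (3 where none passed), the 2 most abundant per complex, complex II, and tissue isoforms with their partners. Also named were Ppargc1a, Nrf1, Gabpa and Tfam, and the 2 genes with the smallest p of each pathway list in TOM+ cells. The rule asked for 2 per list in AAV-Cre cells too, but for some lists only the gene with the smallest p was named, and for others none. The inhibitor gene that the rule also names was not analysed here. Other named members passed a test or are named after their values were seen.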

Additional observations from a re-analysis of the deposited data

How the results depend on the processing

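In TOM+ against TOM- cells, 8 mitochondrial members rose, and 6 to 8 did when each library was left out; their median of 1.75 stayed between 1.63 and 1.95. The 11 nuclear members that fell became 24 with DESeq2, 3 without scaling factors and 1 to 9 when a library was left out, and their median of -0.38 became -0.11 without scaling factors and stayed between -0.50 and -0.26 without single libraries. The cause was not tested. The log2 difference in the ratio of mitochondrial to nuclear counts was 1.78, 2.34 from medians of log2 CPM, and 1.64 to 1.97 without single libraries. Over all genes, 3635 passed, 5521 with DESeq2 and 1511 to 3547 without single libraries.

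In AAV-Cre against AAV-GFP cells, the 2 nuclear members that fell became 11 with DESeq2, 1 without scaling factors and 0 in each fit without a library, and their median of -0.93 stayed between -1.08 and -0.50. The mitochondrial median of -1.30 reversed to 0.049 without AAV-GFP replicate 3 and was -1.69 at its lowest. The log2 difference in the ratio, 0.07, reversed to -0.038 without AAV-Cre replicate 1 and to -0.39 without AAV-GFP replicate 2, and reached 0.50 without AAV-GFP replicate 3. On simulated data DESeq2 made more false calls than edgeR in both sets, and in the AAV set the share of calls that were false exceeded the threshold with both tools. The simulation gave all genes the same spread between libraries and had no library that stood apart, as AAV-GFP replicate 3 does. It therefore does not give the share of false calls in the real libraries. Over all genes, 400 passed, 2896 had an unadjusted p under 0.05, and 1884 passed with DESeq2, 712 without a count filter and 0 to 296 without single libraries.

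With the replicate number as a block, 1 nuclear member fell in TOM+ cells, 7 mitochondrial members rose and 1987 genes passed in all; in AAV-Cre cells 0 nuclear members and 0 genes passed. Deviations of libraries with the same number correlated at -0.03, -0.01 and 0.02 in the TOM set and at -0.07, -0.07 and -0.06 in the AAV set. Such correlations cannot show whether libraries with the same number came from the same animals or sort. The labels do not state that the numbers pair the samples.

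mt-Atp8, mt-Nd3 and mt-Nd4l were below the count filter in both comparisons, and Cox4i2 and Ndufa4l2 were below it in the PVH cells.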
